A study of Mus musculus with 14 samples.

Results

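Bmi1 and the partners with which it builds the catalytic core of Polycomb repressive complex 1 (PRC1) were measured in B-1a cells from the mouse peritoneal cavity. The group holds Bmi1, its paralogs Pcgf1, Pcgf2, Pcgf3, Pcgf5 and Pcgf6, the ubiquitin ligases Ring1 and Rnf2, and the adaptors Rybp and Yaf2. It was chosen by name, taking every probe other than a control probe that the array design assigns to one of these genes. This gave 16 probes for 10 genes, of 55681 probes under 34821 gene names on the array. RNA of each sample was labelled with Cy3 and hybridised to its own single-colour array, giving 7 arrays labelled Bmi1 KO and 7 labelled wild type (WT). The arrays fall into 2 experiment sets, recognised from the way the titles number their samples. Set 1 holds 3 KO and 3 WT arrays, and set 2 holds 4 of each. Strain, age, sex, the Bmi1 allele and the part of the gene that it removes are given in none of the sources used here, nor is any treatment. Whether each sample is a different animal is unstated, and the p-values below then describe the scatter of these samples only, part of which may be technical.

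PRC1 is a chromatin complex that monoubiquitinates histone H2A and helps to keep developmental and cell cycle genes silent. Each copy holds a Pcgf protein, such as Bmi1, bound to Ring1 or Rnf2, which carries the ligase activity. In canonical PRC1 the core contains Bmi1 or its closest relative Pcgf2 and joins Cbx and polyhomeotic proteins, whereas variant complexes carry Rybp or Yaf2 in place of Cbx and can be built on any of the Pcgf proteins. B-1a cells are CD5-bearing, self-renewing B lymphocytes of the peritoneal and pleural spaces and a source of natural antibody, and Bmi1 is known for its role in the self-renewal of stem and progenitor cells. The comparison of KO with WT asks whether the transcripts of Bmi1 and of its partners differ between B-1a cells labelled Bmi1 KO and WT.

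The probes on which the results turn are shown by sequence, because they read different stretches of the same gene. Both Bmi1 probes lie on the plus strand of chromosome 2 in genome build mm9, at chr2:18607531-18607590 and chr2:18607987-18608046, with starts 456 bases apart. They are called the upstream and the downstream Bmi1 probe, and the first 30 bases of each are given. The upstream Pcgf2 probe and the Pcgf1 probe are given whole. Both are 60 bases long but span 174 and 469 bases of the genome (chr11:97553207-97553380, minus strand, and chr6:83030111-83030579, plus strand), so each bridges at least 1 exon junction. All run 5′ to 3′ as on the array, in the sense of the transcript. Exon and UTR annotation of mm9 was not used here.
Bmi1 upstream: gctttgtcttgcttgtagccattaaatcat
Bmi1 downstream: tggtgaatttaactcatttttctagacttt
Pcgf2 upstream: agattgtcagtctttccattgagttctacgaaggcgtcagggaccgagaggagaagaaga
Pcgf1: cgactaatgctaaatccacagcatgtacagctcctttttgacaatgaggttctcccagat

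Signal differed between the arrays, and this touches every value below. Of all probes, 40.6% ± 14.4 (SD, n = 7) were well above background on KO arrays, from 20.6% to 56.6%, and 52.3% ± 7.12 (SD, n = 7) on WT arrays, from 43.7% to 63.1% (exact permutation of genotype within sets, two-sided, p = 0.0457). The 4 arrays with under 40% were all KO, namely set 1 replicate 4 and set 2 replicates 1, 2 and 3. Among B-1a markers, 5 of 8 genes, including Cd79a, Cd79b and Ms4a1, were above background on all 14 arrays, while Cd5 was above it on 3 of 7 KO and 6 of 7 WT arrays. Markers of macrophages were also detected, with Emr1 above background on all 14 arrays and a summed linear level over 4 genes, with that array's 75th percentile as unit, of 8.75 to 604.8 in KO and 10.2 to 166.1 in WT. Of the other lists of peritoneal or blood cells, 5 T cell genes summed to 1.73 to 22.1 in KO and 1.64 to 7.43 in WT, 4 mast cell genes to 0.845 to 11.3 and 1.80 to 6.15, and 3 erythroid genes to 0.126 to 4455 and 0.0824 to 1348. The sums were 0.146 to 1.76 and 0.0426 to 0.697 for 2 NK cell genes and 0.0235 to 2.54 and 0.0270 to 0.295 for 2 mesothelial genes. The part of other cells in the results was not tested, and in bulk RNA a change in the share of a cell type and a change of RNA per cell cannot be told apart.

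Detection of the core and adaptor genes varied from array to array. Of the 16 probes, 8, 11 and 9 were well above background on the set 1 KO arrays, and 3, 0, 4 and 9 on the set 2 KO arrays. On WT arrays 9, 13 and 14 were above it in set 1 and 9, 5, 8 and 6 in set 2. The ranges overlap, and the means of 6.29 ± 3.99 (SD, n = 7) for KO arrays and 9.14 ± 3.34 (SD, n = 7) for WT did not differ beyond the spread (exact permutation within sets, two-sided, p = 0.0757). The low counts lie on the same arrays as the low shares over all probes, and without the 4 dim KO arrays the KO mean was 9.33 ± 1.53 (SD, n = 3; exact permutation, two-sided, p = 0.78, an alternative chosen after seeing the data).

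**Figure D1:**
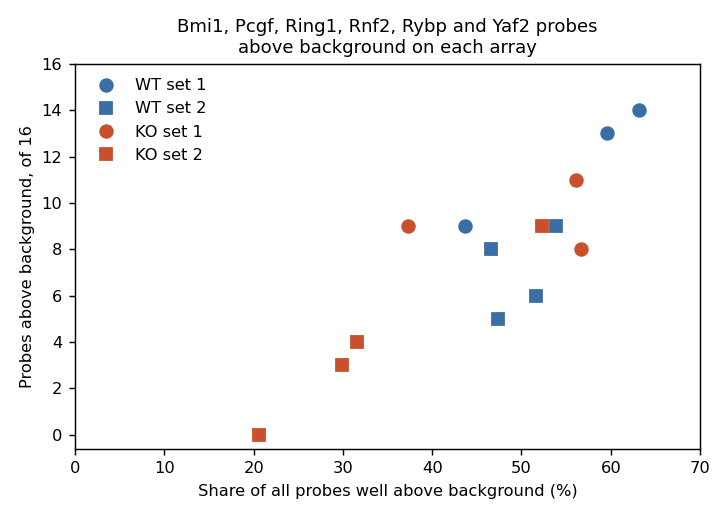
Number of the 16 probes of the PRC1 core and adaptor genes that were well above background (vertical axis, count) against the percentage of all probes above background on the same array (horizontal axis), with 1 point per array for 7 KO and 7 WT arrays. KO set 2 replicate 2, with 20.6% of all probes above background, detected 0 of the 16, and WT set 1 replicate 4, with 63.1%, detected 14.

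Levels below are log2 signal minus the array's 75th percentile, so a probe at 0 lies at that percentile, and each probe has its own scale. Detected below means well above background. On this scale probes without signal read higher on the 3 dim arrays of set 2. Probes of the group below background had a median level of -1.53 on KO set 2 replicate 2, -2.84 on replicate 1 and -3.15 on replicate 3 of that group, against -3.40 to -6.13 on the 11 other arrays, with -4.97 on the dim KO array of set 1. Differences are KO minus WT from limma, adjusted for set, with Benjamini-Hochberg adjustment over the 29679 probes that cleared background on 4 or more of the 7 arrays of KO or of WT. Of the 16 probes, 10 passed this filter, for every gene but Pcgf1. The other 6 were compared by exact permutation alone. Among the 10, downstream Bmi1 passed through the KO arrays alone. Upstream Pcgf2, Pcgf6, Rybp and the tested Pcgf3 probe passed through the WT arrays alone.

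In the test of genotype 0 of the 10 probes passed an adjusted p of 0.05 in limma, against 0.0303% of all tested probes (9 of 29679). That is 0.00337% higher in KO, 1 probe, and 0.0270% lower, 8 probes. At an unadjusted p under 0.05 there was 1, the downstream Bmi1 probe, which is 10% of the group against 13.6% of all tested probes, 8.18% higher in KO and 5.38% lower. The difference was above 0 for 8 of the 10 and below 0 for 2, while 59.8% of all tested probes were above 0. When arrays were instead scaled to the probes above background on all 14, the differences of 7 of those 8 turned below 0, all but that of downstream Bmi1, and the median of all tested probes was -1.04. The median difference was 0.56 over the 10 probes and 0.32 over all tested probes, and 7 of the 10 lay above that overall median. For 0 of the 10 did every KO array read above every WT array, or every KO array below every WT array, which held for 0.128% and 0.131% of all tested probes.

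**Figure D2:**
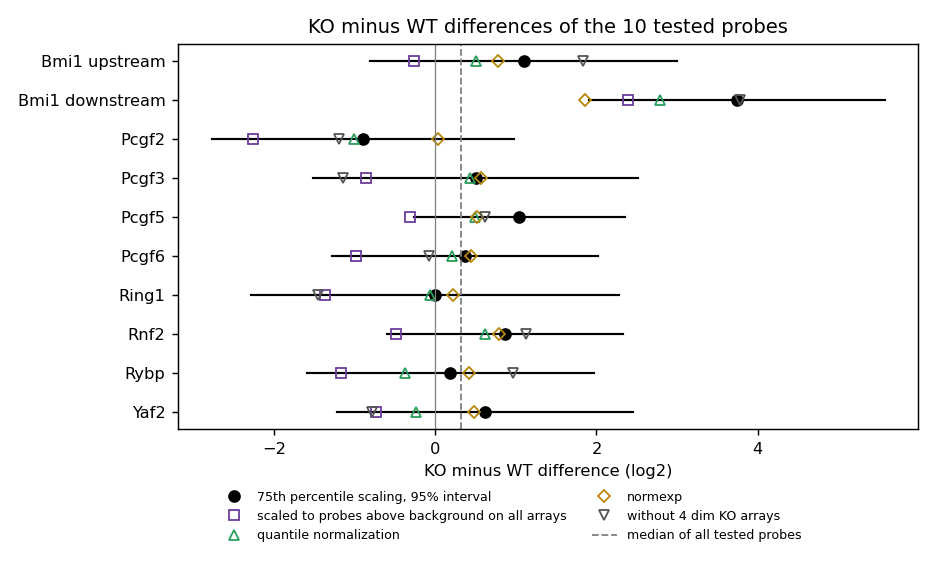
KO minus WT difference on the log2 scale (horizontal axis) for each of the 10 tested probes (vertical axis), as a black point with its 95% confidence interval from limma, and open symbols for other ways of scaling or choosing arrays. The dashed line is the median of all tested probes, 0.32, and the interval of the downstream Bmi1 probe, 1.91 to 5.58, is the only one that leaves out 0.

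Neither Bmi1 probe had a lower mean on the arrays labelled KO with the 75th percentile scaling, and the smaller of the differences turned under another scaling, as given below. The downstream probe read from -3.15 to 2.62 in KO with a median of -0.16, and from -5.32 to -2.19 in WT with a median of -4.73. Of the 7 KO arrays, 6 read above all WT arrays, and the exception was KO set 2 replicate 1, where the probe was below background. KO set 2 replicate 2, 1 of the 6, was below background too and is the dimmest array. The mean was -0.25 ± 1.91 (SD, n = 7) for KO arrays and -3.99 ± 1.34 (SD, n = 7) for WT, which differ by 3.74 (SE 0.87; exact permutation within sets, two-sided, p = 0.00286, where 0.00143 is the smallest this design can give). In limma this had an adjusted p = 0.176 over all tested probes, so the probe was not called, and relative to the median of all probes the difference was 3.42.

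Much of the WT signal of that probe lay at background. It was detected on 5 of 7 KO arrays and 3 of 7 WT arrays, so it passed the filter through the KO arrays alone. Where it was above background, the deposited signal before scaling between arrays was 229, 134.7, 247.3, 241 and 282.6 in KO and 19.6, 55.7 and 35.4 in WT. The ranges of these 5 and 3 signals do not overlap, but they leave out the arrays where the probe was undetected. Over all 7 KO and 7 WT arrays the levels overlap, with a KO minimum of -3.15 and a WT maximum of -2.19. How many of all tested probes separate as far was not counted. The 4 groups had means of -0.12 ± 1.05 (SD, n = 3) in KO set 1, -0.35 ± 2.56 (SD, n = 4) in KO set 2, -3.55 ± 1.34 (SD, n = 3) in WT set 1 and -4.33 ± 1.43 (SD, n = 4) in WT set 2. In this order the groups of the same genotype lie within each other's spread, and the largest step in the means lies between the genotypes. The spreads of KO set 2 and WT set 1 overlap too. KO set 2 replicate 1, at -3.15, lay below WT set 1 replicate 4, at -2.19. In KO set 2 the probe was detected on 2 of 4 arrays. The difference was 3.43 in set 1, which lies on 1 slide, and 3.98 in set 2, and no difference between the sets was detectable (limma, difference of the sets 0.55, unadjusted p = 0.764). Slide 3 holds only WT arrays, set 2 replicates 2 and 4, so genotype and slide are partly mixed in set 2. Within slide 2, with 4 KO and 2 WT arrays, the difference was 3.28. With slide as a block it was 3.36 (limma, adjusted p = 0.349). Leaving out the 4 dim KO arrays left it at 3.78, and the lowest value under any other scaling was 1.86, after normexp background correction.

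The upstream Bmi1 probe gave a smaller difference. It was well above background on 6 of 7 arrays of either genotype. Its level ran from -1.57 to 3.78 in KO with a median of 2.58, and from -3.12 to 2.09 in WT with a median of 1.22. The groups overlap, and 4 of the 7 KO values exceed every WT value. How many of all tested probes do so was not counted. The highest KO value, 3.78, lay on KO set 2 replicate 3, a dim array. Before scaling between arrays its signal was 539.6, below the highest WT signal of 896. The mean was 1.79 ± 1.85 (SD, n = 7) for KO arrays and 0.70 ± 1.87 (SD, n = 7) for WT, which differ by 1.09 (SE 0.90; limma, adjusted p = 0.547) with a 95% confidence interval of -0.81 to 2.99. Its direction depended on the scaling, since the difference was -0.26 when arrays were scaled to the probes above background on all 14. By group the means were 2.38 ± 1.05 (SD, n = 3) in KO set 1, 1.69 ± 0.47 (SD, n = 3) in WT set 1, 1.35 ± 2.34 (SD, n = 4) in KO set 2 and -0.05 ± 2.26 (SD, n = 4) in WT set 2, and all neighbours in this order overlap.

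**Figure D3:**
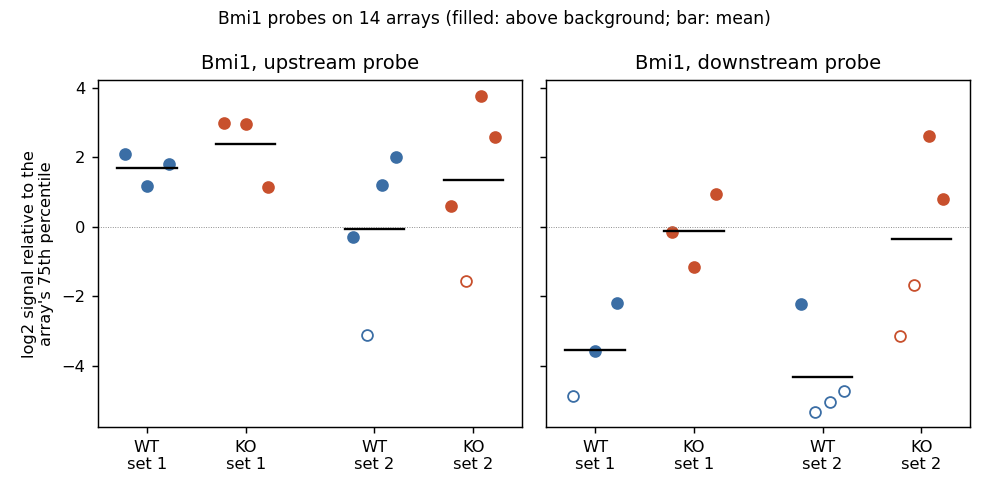
Level of the upstream and the downstream Bmi1 probe (vertical axis, log2 signal minus the array's 75th percentile) on each array, by genotype and set, with filled points for signal well above background, open points for signal below it and bars for group means. At the downstream probe the WT points reach at most -2.19, and the KO points above background start at -1.15. The KO points below background read -3.15 and -1.66.

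The difference between both Bmi1 probes within an array does not depend on how arrays are scaled to one another by a constant. The downstream level minus the upstream level was -2.04 ± 1.66 (SD, n = 7) for KO arrays and -4.69 ± 2.09 (SD, n = 7) for WT. The gap was thus smaller in KO by 2.65 on the log2 scale (exact permutation within sets, two-sided, p = 0.0286), a comparison chosen after seeing the data. A gap measures unequal change at the 2 probes, cannot show that either stayed the same, and rests here on WT values of the downstream probe that were mostly at background. The KO mean also holds values without signal. In KO set 2 replicate 2 both probes were below background, with a gap of -0.09, and in replicate 1 the downstream probe was. Without the 4 dim KO arrays it was 1.96 (exact permutation, two-sided, p = 0.16), and after normexp it was 1.09 (exact permutation, p = 0.103). Leaving out single arrays gave 2.21 to 3.08 with exact permutation p from 0.0157 to 0.06. It was above 0.05 without KO set 1 replicate 4, WT set 1 replicate 2, WT set 2 replicate 3 or 4, or KO set 2 replicate 2 or 3. Over the arrays with both probes above background the gap was -2.09 ± 1.56 (SD, n = 5) for KO arrays and -3.56 ± 1.47 (SD, n = 3) for WT. The part of Bmi1 removed in these mice is not given here. Whether either probe lies inside it is unknown, and a probe outside it checks nothing, so these values leave the genotype labels unchecked.

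Pcgf2, also named Mel18, is the closest relative of Bmi1 and can take its place in canonical PRC1. Its upstream, junction-spanning probe gave unequal values in the 2 sets, although the difference of the sets was not called. In set 1 it read -6.25, -4.49 and -5.06 in KO, all below background, and -2.67, -1.03 and -1.22 in WT, all above it. No KO array of set 1 reached a WT array. How many of all tested probes separate in this way with 3 arrays of each genotype was not counted. The probe passed the filter through the WT arrays alone. The difference in set 1 was -3.63 (SE 1.04; limma, unadjusted p = 0.0033, adjusted p = 0.340). As the KO values are at background, a fold bound was worked out, and on this scale it was 4.92-fold lower in KO. After normexp the set 1 difference was -0.91, a smaller change, so the bound of 4.92-fold is no minimum across ways of processing. That bound sets the WT mean against a raised KO mean. For the KO mean each array gives the higher of the probe's own level and the lowest level of any probe above background. That lowest level is not a detection limit of this probe.

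In set 2 the same Pcgf2 probe read -2.85, -1.52, -3.07 and -0.54 in KO and -3.30, -5.14, -2.43 and -1.69 in WT. It was above background on 1 of 4 KO arrays, replicate 4, and on 2 of 4 WT arrays. The difference in set 2 was 1.14 (limma, unadjusted p = 0.224), and it turned to -0.70 when arrays were scaled to probes above background on all 14. The difference between the sets was 4.77 (SE 1.38; limma, unadjusted p = 0.00345, adjusted p = 0.863), so it was not called. Of the 10 probes 0 were called for the difference of the sets and 1 had an unadjusted p under 0.05, against 0% and 5.37% of all tested probes. Over both sets the Pcgf2 probe was detected on 1 of 7 KO arrays and 5 of 7 WT arrays, with a difference of -0.90 (SE 0.89; limma, adjusted p = 0.621). It was -2.26 when arrays were scaled to the probes detected on all 14, and 0.029 after normexp.

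The downstream Pcgf2 probe, at chr11:97551160-97551219, was above background on 1 of 14 arrays, KO set 2 replicate 4, and gave no comparison of levels above background. Its scaled levels differed by 1.40 (exact permutation within sets, two-sided, p = 0.0157). That difference was 0.05 when arrays were scaled to probes above background on all 14 (exact permutation, p = 0.976).

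Within set 1 taken alone, 0 of the 10 probes were called and 2 had an unadjusted p under 0.05 in limma, the upstream Pcgf2 and the downstream Bmi1 probe, against 0.0236% and 7.80% of all tested probes. In set 2 alone 0 were called and 2 had an unadjusted p under 0.05, the downstream Bmi1 probe and a Pcgf5 probe, against 0.0135% and 13.2%. Between WT arrays of set 2 and set 1, 0 of the 10 probes were called and 0 had an unadjusted p under 0.05 in limma, against 0% and 2.73%. The largest of these WT differences were -2.44 for Ring1 and -1.74 for the upstream Bmi1 probe.

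Pcgf1, Pcgf3, Pcgf5 and Pcgf6 are found in variant PRC1, Pcgf1 with the demethylase Kdm2b and Pcgf6 with E2F6 and its partners. The Pcgf1 probe was detected in set 1 alone. It was detected on 2 of 3 KO arrays and 3 of 3 WT arrays of set 1, at deposited signals of 643.3 and 177.8 in KO and 450.5, 59.9 and 127.2 in WT, and on none of the 8 arrays of set 2. These signals overlap, and over all arrays the difference was 0.54 (exact permutation within sets, two-sided, p = 0.603).

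Pcgf3 was read by 2 probes, at chr5:108917527-108917586 and chr5:108931091-108931150. The first was detected on 1 of 7 KO arrays and 2 of 7 WT arrays, with a difference of 0.75 (exact permutation, two-sided, p = 0.443). The second was detected on 2 of 7 KO arrays and 4 of 7 WT arrays. Its level ran from -6.21 to 1.09 in KO and from -5.46 to -1.87 in WT, and the difference was 0.50 (SE 0.96; limma, adjusted p = 0.815), with a 95% confidence interval of -1.52 to 2.52. Its direction turned without the 4 dim KO arrays, to -1.15. Its highest level lay on KO set 1 replicate 4, and the groups overlap.

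Pcgf5 was read by 3 probes, of which 2, at chr19:36530623-36530682 and chr19:36530629-36530688, share 54 bases and are not independent. Both were above background on 0 of the 7 KO arrays, and on 3 and 2 of 7 WT arrays, in that order. Their differences of 0.82 and 0.37 rest on KO levels at background (exact permutation within sets, two-sided, p = 0.264 and p = 0.527), and both turned negative, to -0.54 and -0.99, when arrays were scaled to probes above background on all 14. No fold bound above 1 followed from them.

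The Pcgf5 probe further downstream, at chr19:36535120-36535179, was above background on 4 of 7 arrays of either genotype. In set 1 it was detected on all 6 arrays and varied little, at -3.26, -3.24 and -2.74 in KO and -2.85, -2.89 and -3.05 in WT. The set 1 difference was -0.15. In set 2 the difference was 1.94 (limma, unadjusted p = 0.0213, adjusted p = 0.379), but there 3 of 4 KO and 3 of 4 WT arrays were at background. Those 3 KO arrays are the dim ones, and read -2.12, -1.67 and -3.33 without signal, while the undetected WT arrays read -5.27, -4.73 and -4.73. No difference between the sets was detectable (limma, unadjusted p = 0.0899), and over both the difference was 1.04 (SE 0.62; limma, adjusted p = 0.416).

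Pcgf6 was detected on all 6 arrays of set 1 and on 2 of 8 in set 2, both WT. Its level at chr19:47108539-47108598 ran from -3.27 to 0.76 in KO with a median of -1.44, and from -4.51 to 0.43 in WT with a median of -1.13. The genotypes overlap over nearly the whole range. The difference was 0.37 (SE 0.78; limma, adjusted p = 0.835).

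Both ligase genes were detected on all 7 WT arrays. Ring1, at chr17:34158164-34158223, was above background on 4 of 7 KO arrays. Its level ran from -5.32 to 2.64 in KO with a median of -0.48, and from -2.79 to 2.74 in WT with a median of -0.51. The medians lie close together and the KO spread encloses nearly all of the WT values. The difference was -0.01 (SE 1.08; limma, adjusted p = 0.998), with a 95% confidence interval of -2.29 to 2.28, so a change of several fold in either direction was not detectable with these arrays. It was -1.49 in set 1 and 1.10 in set 2. A single array, KO set 1 replicate 2, gave the lowest level, below background, and without it the difference was 1.05.

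Rnf2, also named Ring1b, is the ligase that carries most H2A ubiquitination in embryonic stem cells. Its probe at chr1:153316987-153317046 was above background on all 7 WT and on 5 of 7 KO arrays, the exceptions being KO set 2 replicates 2 and 3, both dim. The level ran from -1.64 to 2.22 in KO with a median of 0.89, and from -2.08 to 1.24 in WT with a median of -0.19. The mean was 0.64 ± 1.60 (SD, n = 7) for KO arrays and -0.22 ± 0.99 (SD, n = 7) for WT, which differ by 0.86 (SE 0.69; limma, adjusted p = 0.537) with a 95% confidence interval of -0.60 to 2.33. The genotypes overlap, and the difference was 1.34 in set 1 and 0.51 in set 2. Its direction turned to -0.49 when arrays were scaled to probes above background on all 14.

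Rybp and Yaf2 are paralogs that bind the ligase in variant PRC1, where Rybp stimulates its activity. The Rybp probe at chr6:100178610-100178669 was detected on 3 of 7 KO arrays and 5 of 7 WT arrays. Its level ran from -4.59 to -0.19 in KO and from -4.89 to -0.19 in WT, so the ranges nearly coincide. The difference was 0.19 (SE 0.84; limma, adjusted p = 0.928), and its sign changed with the scaling.

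Yaf2 was read by an upstream probe at chr15:93115295-93115354 and a downstream probe at chr15:93114341-93114400, on the minus strand. The upstream probe was detected on all 7 WT arrays and on 6 of 7 KO arrays. Its level ran from -1.65 to 3.76 in KO with a median of 0.09, and from -1.38 to 1.23 in WT with a median of 0.15. KO set 2 replicates 1 and 3 gave the highest KO values and replicate 2 of that set, where the probe was undetected, the lowest. All of these are dim arrays. Signals before scaling were 268.9 and 529.3 on replicates 1 and 3. KO set 1 replicate 4, with a signal of 447.4, had a level of 1.81. The KO spread is the wider, 0.67 ± 2.20 (SD, n = 7) against 0.05 ± 0.83 (SD, n = 7). The difference was 0.62 (SE 0.87; limma, adjusted p = 0.745). The downstream probe was above background on 1 of 7 arrays of either genotype and differed by 1.24 (exact permutation within sets, two-sided, p = 0.226).

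**Figure D4:**
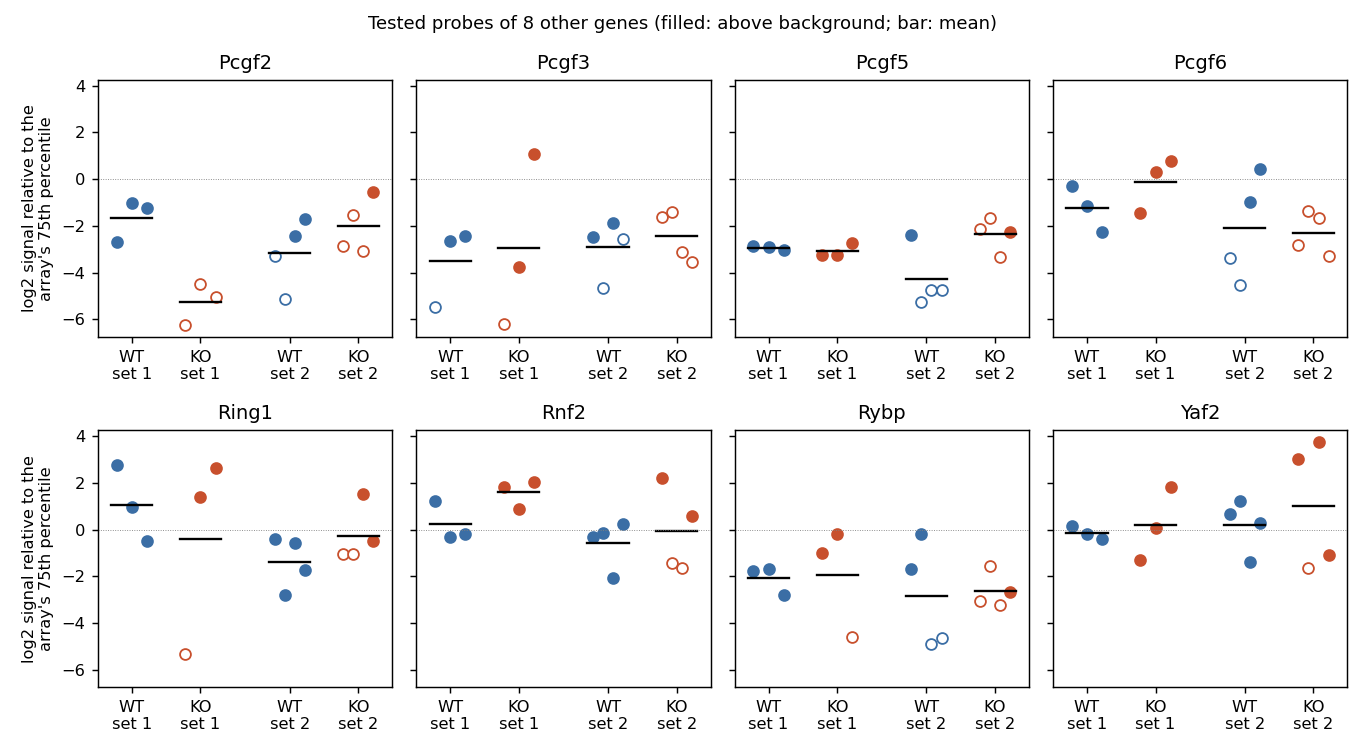
Level of Pcgf, ligase and adaptor probes other than those of Bmi1 (vertical axis, log2 signal minus the array's 75th percentile) on each array, by genotype, with filled points for signal well above background, open points for signal below it and bars for means. For the upstream Pcgf2 probe 1 KO point and 5 WT points are above background, and for every probe the genotypes overlap.

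The rest of the Polycomb system was compared in the same fit, and none of its listed genes was called. Canonical PRC1 partners, the Cbx and polyhomeotic proteins that read histone methylation and oligomerise, had 10 tested probes for 5 of 10 genes, with a median difference of -0.25. At an unadjusted p under 0.05 in limma 1 was higher and 1 lower, where 13.6% of all tested probes lie past that threshold, 8.18% higher and 5.38% lower. Those shares are the background for the counts of the other lists too. The higher probe was of Cbx7, at 1.71 (limma, adjusted p = 0.357), and the other tested Cbx7 probe gave 1.06. The lower probe was of the polyhomeotic gene Phc3, at -1.71 (limma, adjusted p = 0.366). The other Phc3 probes gave 1.27 and -0.80. The variant PRC1 partners had 36 probes for 20 of 23 genes and a median of -0.07, with Cbx3 at 1.66 and the WD-repeat protein gene Dcaf7 at -2.51 past the unadjusted threshold (limma, adjusted p = 0.368 and adjusted p = 0.327). Their other probes gave 0.14 for Cbx3 and 0.17 and -1.94 for Dcaf7.

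PRC2, the complex that methylates histone H3 at Polycomb targets, had 18 tested probes for 10 of 11 genes with a median of -0.34, of which 2 were higher and 1 lower at an unadjusted p under 0.05, against 13.6% of all tested probes. Among them were the histone-binding subunit Rbbp4 at 2.17 and the accessory subunit Aebp2 at -2.32 (limma, adjusted p = 0.310 and adjusted p = 0.338), whose other probes gave 0.57 and -0.82. The H2A deubiquitinases and their cofactors, which remove the mark that PRC1 sets, had 9 probes for 7 of 8 genes with a median of 0.63. In that list Asxl2, a cofactor of Bap1, was the lower one at -2.53 (limma, adjusted p = 0.368), and the deubiquitinase Usp16 gave 1.67 (limma, adjusted p = 0.371). The other tested Usp16 probe gave 0.63. Of the classical Bmi1 targets Cdkn2a and Cdkn2b, only Cdkn2b passed the filter. This cell cycle inhibitor gene was detected on 4 of 7 KO arrays and 1 of 7 WT arrays, so it passed the filter through the KO arrays alone, and its difference of 2.45 (SE 0.86; limma, adjusted p = 0.312) is set against WT values below background on 6 of 7 arrays.

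Over the 14 arrays, the probes most like each Bmi1 probe were found by Pearson's correlation of levels after removing the 4 group means, among 10548 probes. For the upstream probe they were those of Rhot2 (r = 0.91), Supt3 (r = 0.87) and Gde1 (r = 0.86), and for the downstream probe those of Smcr7l (r = 0.93), Sucla2 (r = 0.90) and Rbm47 (r = 0.89). The compared probes were each detected on 10 or more arrays, but the downstream Bmi1 probe itself on only 8 of the 14. Its correlations thus rest in part on levels without signal. The points share the array and its brightness, and these values are a description of the arrays.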

How the data were processed

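The intensity of each spot comes from Agilent Feature Extraction, version 10.7.3.1 per the file headers, and positions are those of build mm9. Other columns of the deposited files mark, with 0 or 1, spots well above background, saturated spots and outliers, and were used as given. Per the labels, RNA was purified on micro columns and labelled by an undisclosed company protocol. The authors' deposited table of processed log2 values has 1 median, 3.95, in all arrays and followed each array's scanner values (Spearman's rho at least 0.999). It was used as an alternative. Its scale and direction follow from that match, while the sources used here do not name its tool.

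Values analysed were log2 of the processed intensity minus the array's 75th percentile, without outlier spots, averaged by probe. The fit was limma 3.58.1 in R 4.3.3 on all 14 arrays with set as covariate, and a fit of 4 group means gave the differences within and between sets. Exact permutations exchanged genotype within sets (1400 arrangements). The scripts were tested on simulated data. There limma called 5 of 100 probes changed by 2 on the log2 scale and 51 of 100 changed by 4. The simulated noise was independent between probes and arrays, with the same SD for KO and WT. Dim arrays and a background floor were not simulated, so these counts need not hold for the arrays here. A probe that was not called may thus still differ by several fold. Named genes are all members, the members of each Polycomb list with the smallest p, and the 3 probes most like each Bmi1 probe. Members and lists were chosen with earlier results of these data known. The number of arrays limits the precision.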

Additional observations from a re-analysis of the deposited data

Results flagged for a closer look

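At the downstream Yaf2 probe WT set 2 replicate 2 stood apart from the other WT arrays. It read -0.73, above background, while the next WT array read -4.75 and all 6 others were below background. The gap is 0.72 of the WT range, above Dixon's critical value for 7 samples. Of 32 groups of arrays tested in this way it was the only one past its value, and chance alone passes about 1 in 20 groups.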

How the results depend on the processing

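No member probe was called under any alternative that tested one, leaving out single arrays included (0 to 0 probes higher, 0 to 0 lower). The restriction to probes above background on every array tested no member. The downstream Bmi1 probe kept its direction wherever it was tested, which leaves out that restriction and the choice of 1 probe per gene (1.86 to 4.22, limma adjusted p from 0.0935 to 0.551). Scaling to the probes detected on all 14 arrays moved the median difference of all probes from 0.32 to -1.04 and turned the sign of upstream Bmi1 (-0.26), Pcgf3 (-0.86), the tested Pcgf5 probe (-0.31), Pcgf6 (-0.99), Rnf2 (-0.49), Rybp (-1.17), upstream Yaf2 (-0.74), Pcgf2 in set 2 (-0.70) and, below the filter, Pcgf1 (-0.82), Pcgf3 (-0.61), Pcgf5 (-0.54 and -0.99) and Yaf2 (-0.12). Quantile normalization and the deposited values turned Rybp (-0.38 and -0.37), Yaf2 (-0.25 and -0.23) and Pcgf5 in set 1 (0.41 and 0.44), and normexp turned Pcgf2 (0.029) and Ring1 (0.22). Array weights turned Pcgf3 (-0.68), and testing against the median of all probes turned Rybp (-0.13). Leaving out the 4 dim KO arrays, a choice made with earlier results known, turned Pcgf3 (-1.15), Pcgf6 (-0.074), upstream Yaf2 (-0.78), Pcgf1 (-1.03) and a Pcgf5 probe below the filter (-0.35). Without single arrays Ring1 ran from -0.44 to 1.05, Rybp from -0.18 to 0.69, Pcgf3 from -0.26 to 1.10, Pcgf6 from -0.011 to 0.87, upstream Bmi1 from 0.52 to 1.59, upstream Yaf2 from 0.11 to 1.07, Rnf2 from 0.49 to 1.17 and Pcgf2 from -1.44 to -0.46. The cause of these turns was not tested.

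Over all probes the calls, 1 higher and 8 lower, were 1 and 135 after that scaling, 25 lower with quantile normalization and also with the deposited values, 0 higher and 1 lower among probes above background on all arrays (fewer probes tested), 0 higher with slide as a block, 4 higher and 38 lower with array weights, 0 and 5 without the dim arrays, 21 lower against the median of all probes and 4 lower with 1 probe per gene (fewer probes tested). Without single arrays they ran from 0 to 16 higher and from 5 to 49 lower. The Bmi1 gap stayed positive, at 2.28 (quantile), 1.09 (normexp) and 2.28 (deposited), with exact permutation p = 0.0714, 0.103 and 0.07.

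After the 4 group means were removed, same-numbered arrays correlated at -0.22 to 0.19, and 2 of 14 arrays correlated best with their own number. Array brightness enters these correlations, so they cannot show whether same-numbered samples were paired. With the replicate number as a block the downstream Bmi1 difference was 3.74 (limma, adjusted p = 0.224). It equals the main difference by construction, as each number in a set has 1 KO and 1 WT array. In that fit 1 probe was called higher and 7 lower over all probes.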
